A study of Mus musculus with 6 samples.

Results

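The TGF-beta pathway was followed through 9 genes that encode its ligand, receptors, signal-carrying SMAD proteins and inhibitors: Tgfb1, Tgfbr1, Tgfbr2, Smad2, Smad3, Smad4, Smad7, Ski and Skil. They were taken by name from a table of 38216 gene symbols, and all 9 were among the 13311 genes tested, so no member was lost to the filter on low values. RNA was measured in splenic CD4+ cells of naive C57BL/6 mice at postnatal day 28, purified by fluorescence-activated sorting. Every mouse carried the IL21-VFP reporter, in which VFP, a fluorescent protein, marks expression of the cytokine gene Il21, so all 3 pools share that genotype. The ACT IL21 pool was VFP+ and ICOS+, the ACT pool was VFP- and ICOS+, and the N pool was VFP- and ICOS-. ICOS is a costimulator on the surface of activated T cells. Each of the 3 pools was sequenced as 2 libraries, and the labels do not say whether the 2 came from separate animals, so the p-values measure a spread between libraries that may be technical.

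TGF-beta binds the receptor TGFBR2, which recruits and activates the kinase TGFBR1. TGFBR1 phosphorylates SMAD2 and SMAD3, which join SMAD4 and enter the nucleus to regulate genes. SMAD7 blocks the receptor, SKI and SnoN (the product of Skil) hold SMAD complexes in a repressed state, and Smad7 and Skil are themselves known to be transcribed in response to the pathway. In T cells TGF-beta is known for restraining activation and type 1 helper differentiation and for inducing Foxp3 in regulatory T cells.

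Values are TPM, a level per transcript length that is scaled to a fixed total in each library. Levels of different genes are set side by side on that scale. The RNA was amplified before sequencing, and the part of amplification in ratios between genes was not tested. The depth of the libraries is unknown. The libraries carried the marks of the sort and of CD4+ T cells. Il21 was at 44.48 and 51.87 TPM in ACT IL21, at 0 and 1.26 TPM in ACT, and listed at 0 in both N libraries. Cd3e, a T cell receptor complex gene, was at 1275 to 2132 TPM over the 6 libraries, and the B cell gene Pax5 was listed at 0 in all 6. Cd4, the gene of the sorted surface protein, was at 533.54 and 566.54 TPM in ACT IL21, 267.60 and 236.07 TPM in ACT, and 357.93 and 315.56 TPM in N. The B cell list summed to at most 2.6 TPM. The myeloid and dendritic list, mostly Cst3, summed to 49.15 and 53.18 TPM in ACT IL21, 69.59 and 53.76 TPM in ACT, and 34.22 and 28.86 TPM in N. That sum was highest in ACT and lowest in N, and the part of such cells in the values below was not tested. Differences were tested with limma on log2(TPM + 1), with p-values adjusted by the Benjamini-Hochberg method over all genes tested and a threshold of 0.05. All fold changes are on that log2 scale, where the added 1 TPM shrinks the differences of weakly expressed genes. The 2 comparisons with N share the same N libraries. In bulk RNA, fewer cells that express a gene and less RNA per cell cannot be told apart.

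Smad3, Smad4 and Smad7 each passed in 1 of the 3 comparisons. Smad3 was higher in ACT than in N, Smad4 was lower in ACT than in N, and Smad7 was lower in ACT IL21 than in N. Of these genes, only Smad4 had 3 pools that did not overlap. The calls depended on single libraries, as given for each gene below. In ACT against N, 1 of 9 members rose, 1 fell and 7 did not pass, where 5.58% of all genes tested passed; 5 members had an unadjusted p under 0.05, against 18.6% of all genes. For ACT IL21 against N, none rose, 1 fell and 8 did not pass, against 5.09% of all genes; 2 members had an unadjusted p under 0.05, against 18.7% of all genes. Between ACT IL21 and ACT, limma called 0 of 9 members, against 1.95% of all genes, and 4 members had an unadjusted p under 0.05 (Tgfbr1, Smad3, Smad4 and Ski), against 14.9% of all genes. By a moderated F test over the 3 pools, 3 of 9 members differed (Smad3, Smad4 and Smad7), where 7.03% of all genes did. The median log2 fold change of the 9 members was -0.47 in ACT against N, -0.16 in ACT IL21 against N and -0.14 in ACT IL21 against ACT, beside medians of 0.023, 0.10 and 0.076 over all genes.

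**Figure D1:**
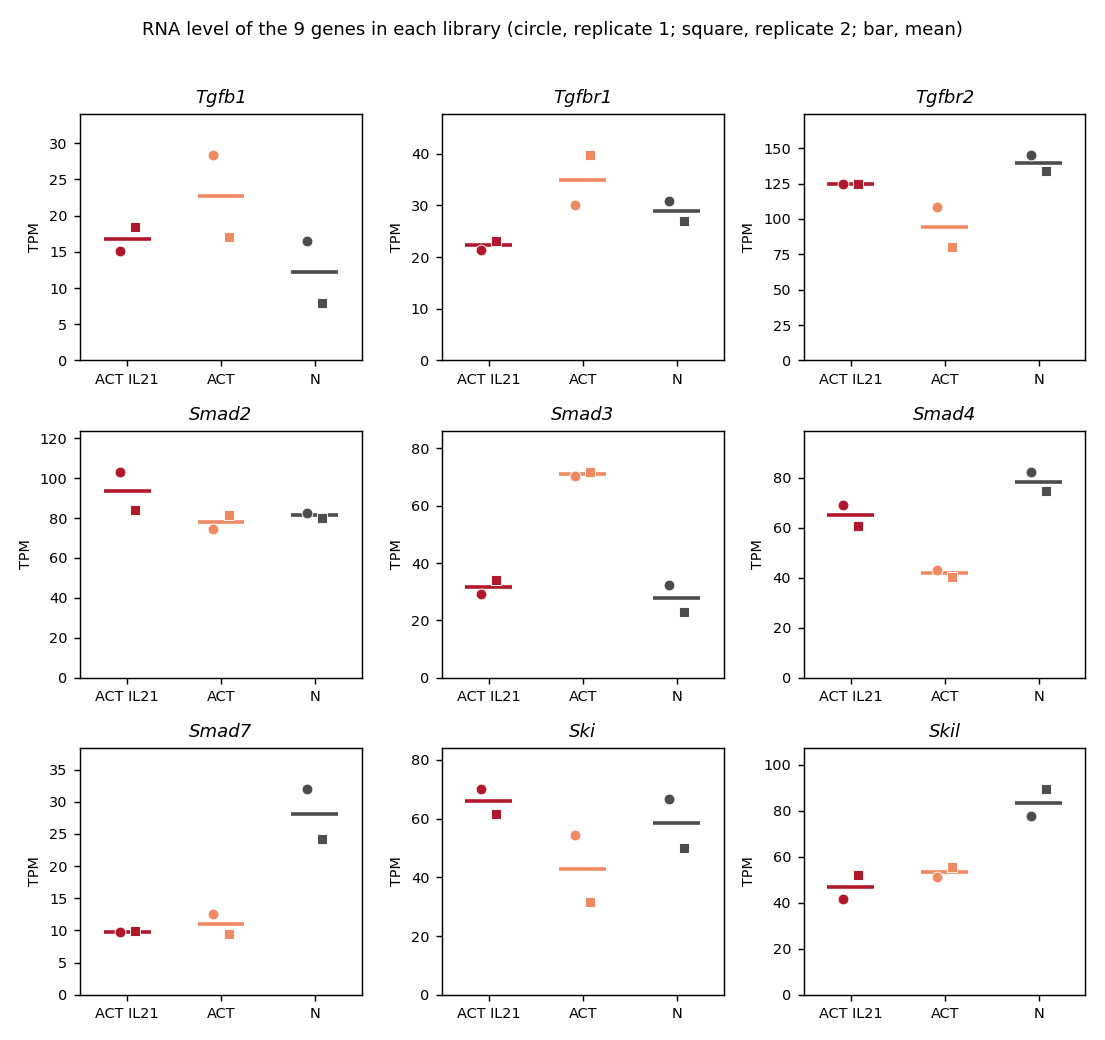
RNA levels of the 9 genes in TPM (vertical axes, each from 0) in the ACT IL21, ACT and N pools. Points are libraries (circle, replicate 1; square, replicate 2) and bars are means of 2 libraries; Smad3 stands at 70.41 and 71.80 TPM in ACT, above all 4 other libraries, and Smad7 is at 31.97 and 24.15 TPM in N, above all 4 ICOS+ libraries.

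The ligand gene Tgfb1 (chromosome 7, 25687002 to 25705077, GRCm38, plus strand, protein-coding) was near the middle of the genes tested, its mean above 51.4% of them in ACT IL21, 59.7% in ACT and 47.1% in N. It was at 15.16 and 18.46 TPM in ACT IL21, 28.41 and 17.08 TPM in ACT, and 16.55 and 7.93 TPM in N. ACT replicate 1 was the highest library and N replicate 2 the lowest, and ACT IL21 overlapped both other pools. The log2 fold change was 0.88 in ACT against N (95% confidence interval -0.047 to 1.81, adjusted p = 0.298), 0.50 in ACT IL21 against N (-0.43 to 1.43, adjusted p = 0.577) and -0.38 in ACT IL21 against ACT (-1.31 to 0.55, adjusted p = 0.712), all by limma. The platelet list (Pf4, Ppbp, Itga2b, Gp9 and Gp1bb), fixed because platelets carry much TGF-beta, summed to 0.45 to 1.97 TPM in ACT IL21, 1.21 to 4.27 TPM in ACT and 0.48 to 2.67 TPM in N, with Gp1bb listed at 0 in all 6 libraries. Within every pool the library with the larger platelet sum was replicate 1, which was also the library with more Tgfb1 in ACT and N but not in ACT IL21; the part of platelets in these values was not tested.

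The receptor genes were expressed at unequal levels. Tgfbr2 (chromosome 9, 116084293 to 116175360, minus strand, protein-coding), the gene of the ligand-binding receptor, was the most abundant of the 9 members in each pool. Tgfbr2 was at 124.50 and 124.87 TPM in ACT IL21, 108.33 and 80.46 TPM in ACT, and 145.40 and 133.81 TPM in N. The pools did not overlap, with N highest and ACT lowest, but no difference passed. Tgfbr2 had a log2 fold change of -0.57 ± 0.18 (SE) in ACT against N (adjusted p = 0.124), -0.16 ± 0.18 in ACT IL21 against N (adjusted p = 0.707) and 0.41 ± 0.18 in ACT IL21 against ACT (adjusted p = 0.336), by limma. Its mean level ranked above 91.6% of the genes tested in ACT IL21, 88.3% in ACT and 93.2% in N.

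Tgfbr1 (chromosome 4, 47353222 to 47414931, plus strand, protein-coding), the gene of the kinase that phosphorylates SMAD2 and SMAD3, was at 21.41 and 23.13 TPM in ACT IL21, 30.12 and 39.79 TPM in ACT, and 30.79 and 26.88 TPM in N. Both ACT IL21 libraries were below the other 4, while ACT and N overlapped. The log2 fold change of Tgfbr1 was -0.62 in ACT IL21 against ACT (95% interval -1.16 to -0.074, adjusted p = 0.276), -0.36 in ACT IL21 against N (adjusted p = 0.484) and 0.26 in ACT against N (adjusted p = 0.632), by limma. Within libraries, Tgfbr2 exceeded Tgfbr1 by a TPM ratio of 5.82 and 5.40 in ACT IL21, 3.60 and 2.02 in ACT, and 4.72 and 4.98 in N. The ratio was therefore lowest in the ACT libraries and highest in the ACT IL21 libraries, without overlap between pools, and is given as a description.

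Of the 2 SMAD genes that TGFBR1 acts on, Smad3 differed between pools and no difference of Smad2 passed. Smad3 (chromosome 9, 63646767 to 63757994, minus strand, protein-coding) was at 29.21 and 34.04 TPM in ACT IL21, 70.41 and 71.80 TPM in ACT, and 32.41 and 22.92 TPM in N. The ACT libraries stood apart from the rest, and ACT IL21 overlapped N. Smad3 averaged 71.1 ± 0.983 TPM in ACT and 27.7 ± 6.71 TPM in N (SD, n = 2 each), a rise of 1.35 ± 0.23 (SE) on the log2 scale by limma (adjusted p = 0.0132). In ACT IL21 against ACT the log2 fold change of Smad3 was -1.15 (95% interval -1.67 to -0.62, adjusted p = 0.051), above the threshold. It passed under 4 of 15 alternatives (a pseudocount of 5, a filter of 5 TPM and both other scalings), with adjusted p from 0.0356 to 0.274 over the 15 and from 0.0973 to 0.274 with a library left out. Against N, Smad3 in ACT IL21 had a value of 0.20 (-0.32 to 0.73, adjusted p = 0.708). The rise of Smad3 in ACT kept its call without N replicate 1 (adjusted p = 0.0497) and lost it with any other library left out. Adjusted p was then 0.136 (N replicate 2), 0.0636 (ACT replicate 1), 0.0603 (ACT replicate 2), 0.0508 (ACT IL21 replicate 1) and 0.0513 (ACT IL21 replicate 2), and it was 0.0523 with no intensity trend in the spread.

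RefSeq promoter windows (GRCm38.p6, 250 bases before to 50 after a transcript start) were matched for 5 of the 9 members. The windows of Smad3, the member that rose in ACT, and of Tgfbr2, the most abundant member and lowest in ACT, are shown to set side by side the start regions of 2 members on chromosome 9 with opposite orders of the ACT and N pools. Capitals mark matches on either strand to CAGAC (a SMAD box), GTCTAGAC (the palindromic SMAD element), TGACTCA (the AP-1 site) or GGGCGG (the GC box). CAGAC and GTCTAGAC share the letters AGAC, but neither contains the other. The Smad3 window is chr9:63757945-63758244, minus strand, and the Tgfbr2 window is chr9:116175314-116175613, minus strand.
Smad3: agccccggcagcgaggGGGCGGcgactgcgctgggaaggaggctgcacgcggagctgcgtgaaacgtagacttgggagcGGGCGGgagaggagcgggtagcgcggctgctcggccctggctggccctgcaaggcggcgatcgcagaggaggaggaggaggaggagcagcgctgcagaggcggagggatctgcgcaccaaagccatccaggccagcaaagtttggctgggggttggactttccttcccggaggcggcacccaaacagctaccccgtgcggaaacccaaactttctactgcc
Tgfbr2: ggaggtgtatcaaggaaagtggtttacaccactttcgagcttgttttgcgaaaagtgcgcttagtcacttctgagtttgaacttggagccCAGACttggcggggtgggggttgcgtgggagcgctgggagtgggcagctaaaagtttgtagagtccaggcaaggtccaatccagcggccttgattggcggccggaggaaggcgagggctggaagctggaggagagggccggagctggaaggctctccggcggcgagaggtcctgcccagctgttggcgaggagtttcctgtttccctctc
The Smad3 window held 2 GC boxes and no match to the other 3 motifs, at 67.7% G and C, and the Tgfbr2 window held 1 CAGAC and no other match, at 59% G and C. Over 32851 windows of the same length, 49.6% held CAGAC, 0.213% GTCTAGAC, 5.2% TGACTCA and 35.7% GGGCGG, with a median of 52.7% G and C. A match to a short motif is a description of letters and not a bound site.

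Smad2 (chromosome 18, protein-coding), whose product is the close relative of SMAD3, was at 103.11 and 83.87 TPM in ACT IL21, 74.57 and 81.33 TPM in ACT, and 82.64 and 80.21 TPM in N. Both ACT IL21 libraries were above the other 4 for Smad2, and ACT overlapped N. Its log2 fold changes were -0.063 in ACT against N (95% interval -0.46 to 0.33, adjusted p = 0.898), 0.19 in ACT IL21 against N (-0.20 to 0.58, adjusted p = 0.626) and 0.25 in ACT IL21 against ACT (-0.14 to 0.65, adjusted p = 0.544), by limma. The mix of the 2 transcripts within a library is given as a description. Smad3 made up 22.1% and 28.9% of the summed Smad2 and Smad3 TPM in ACT IL21, 48.6% and 46.9% in ACT, and 28.2% and 22.2% in N. Its share was highest in both ACT libraries, and the other 2 pools overlapped.

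Smad4 (chromosome 18, protein-coding), the gene of the shared partner of SMAD2 and SMAD3, had a pattern opposite to Smad3. It was at 69.04 and 60.77 TPM in ACT IL21, 43.17 and 40.39 TPM in ACT, and 82.28 and 74.49 TPM in N. The 3 pools did not overlap, with ACT lowest and N highest. Smad4 averaged 41.8 ± 1.97 TPM in ACT and 78.4 ± 5.51 TPM in N (SD, n = 2 each) and fell by 0.89 on the log2 scale (SE 0.17, adjusted p = 0.0251, limma). For ACT IL21 against ACT the log2 fold change of Smad4 was 0.62 (95% interval 0.22 to 1.02, adjusted p = 0.14), and in ACT IL21 against N it was -0.27 (-0.67 to 0.13, adjusted p = 0.473). The fall in ACT lost its call with each library left out in turn, while its log2 fold change stayed between -0.96 and -0.82. Adjusted p was then 0.222 (N replicate 1), 0.164 (N replicate 2), 0.0646 (ACT replicate 1), 0.076 (ACT replicate 2), 0.0659 (ACT IL21 replicate 1) and 0.0649 (ACT IL21 replicate 2), and it was 0.065 with the 2 pools alone and 0.0929 with no intensity trend.

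The lists of regulatory T cell and of natural killer and NKT cell markers had their highest sums in ACT, the pool with high Smad3 and low Smad4. The regulatory T cell list (Foxp3, Il2ra, Ikzf2, Ctla4 and Lrrc32) summed to 343.9 and 359.9 TPM in ACT IL21, 575.8 and 714.6 TPM in ACT, and 132.7 and 166.3 TPM in N. Of its 5 genes, 4 (all but Lrrc32) were called higher in ACT than in N. In ACT IL21 against N, 2 were higher (Ctla4 and Ikzf2) and 3 lower (Foxp3, Il2ra and Lrrc32). The same 3 were lower in ACT IL21 than in ACT. Over all genes tested, 4.15% were called higher in ACT than in N. In ACT IL21, 3.82% were higher and 1.26% lower than in N, and 1.15% lower than in ACT. The natural killer and NKT cell list (Klrb1c, Ncr1, Klrk1, Zbtb16 and Klrd1) summed to 39.42 and 47.49 TPM in ACT IL21, 361.5 and 347.7 TPM in ACT, and 38.74 and 44.58 TPM in N. Of its 4 tested genes, 3 were higher in ACT than in N and 4 lower in ACT IL21 than in ACT. In ACT IL21 against N, 1 was higher and 1 lower, so the similar sums of these pools hide opposite differences. Klrb1c was at 25.49 and 25.70 TPM in ACT IL21 and 2.56 and 2.38 TPM in N. Klrd1 was at 6.42 and 13.87 TPM in ACT IL21 and 33.29 and 38.02 TPM in N. In ACT, Klrb1c was at 166.08 and 177.29 TPM, Klrd1 at 88.49 and 85.89 TPM, and Klrk1 at 66.84 and 56.11 TPM. Zbtb16 was at 5.91 and 1.70 TPM in ACT IL21, 40.05 and 27.31 TPM in ACT, and 0 and 0.18 TPM in N. The natural killer cell gene Ncr1 did not exceed 1.06 TPM. Both sums were highest in the 2 ACT libraries, where Cd4 was lowest. Its log2 fold change was -0.42 in ACT against N (adjusted p = 0.158) and 1.13 in ACT IL21 against ACT (adjusted p = 0.0103), by limma. A sort for CD4+ cells would remove natural killer cells that lack CD4 but not CD4+ regulatory or NKT cells, and the part of such cells in the values of Smad3 and Smad4 was not tested.

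**Figure D2:**
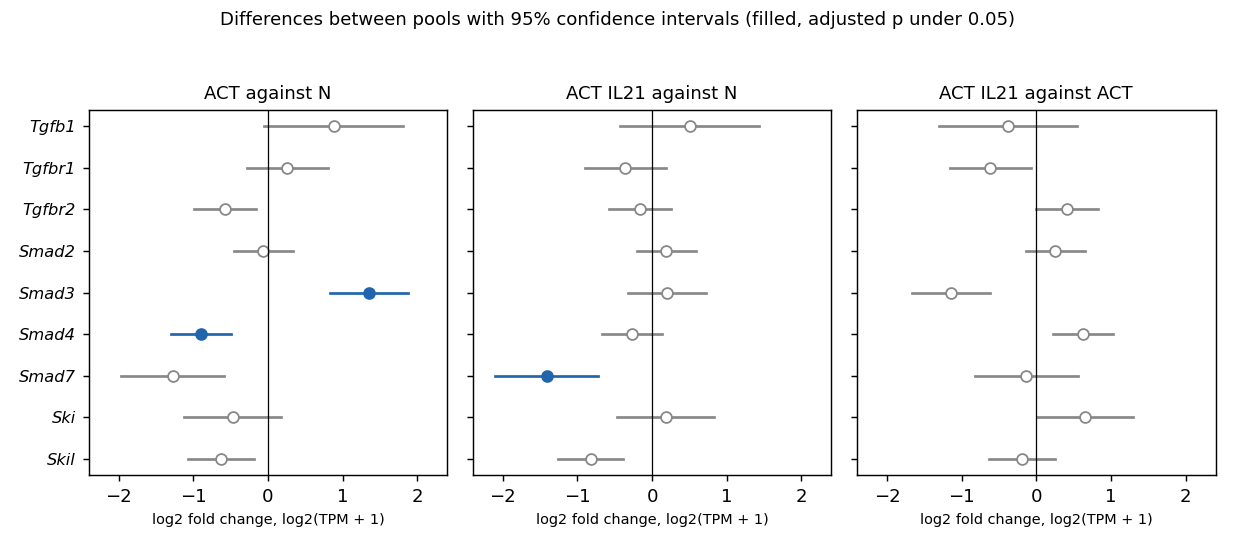
Log2 fold changes on the log2(TPM + 1) scale (horizontal axis) of the 9 genes (rows) in the 3 comparisons (panels), with 95% confidence intervals from limma over 6 libraries. Filled points passed the adjusted threshold of 0.05, namely Smad3 (1.35) and Smad4 (-0.89) in ACT against N and Smad7 (-1.41) in ACT IL21 against N.

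Of the inhibitors, Smad7 (chromosome 18, protein-coding) had lower levels in all 4 ICOS+ libraries than in N. Smad7 was at 9.83 and 9.85 TPM in ACT IL21, 12.58 and 9.47 TPM in ACT, and 31.97 and 24.15 TPM in N. Each ICOS+ library was below each N library, and ACT IL21 lay within the range of ACT. Smad7 averaged 9.84 ± 0.0141 TPM in ACT IL21 and 28.1 ± 5.53 TPM in N (SD, n = 2 each), and fell by 1.41 on the log2 scale (SE 0.30, adjusted p = 0.0367, limma). In ACT against N its log2 fold change was -1.27 ± 0.30 (SE, adjusted p = 0.0507). That value passed under 4 of 15 alternatives (a filter of 5 TPM, both other scalings and the replicate block), with adjusted p from 0.0316 to 0.372 over the 15 and from 0.0772 to 0.372 with a library left out. In ACT IL21 against ACT it was -0.14 (95% interval -0.83 to 0.55, adjusted p = 0.871). The call in ACT IL21 against N held with either ACT library left out and ended without N replicate 1 (adjusted p = 0.303), N replicate 2 (0.203), ACT IL21 replicate 1 (0.19) or ACT IL21 replicate 2 (0.2), and also without a filter on low values (0.0754) or without an intensity trend (0.0512). The CD8 T cell genes Cd8a and Cd8b1 summed to 9.88 and 3.41 TPM in ACT IL21, 5.59 and 7.41 TPM in ACT, and 27.04 and 19.03 TPM in N. That sum was highest in N, as Smad7 was, but rested on Cd8b1, since Cd8a did not exceed 0.36 TPM. The CD4+ sort would remove CD8 T cells, and their part in the result was not tested.

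Set against Smad7 within a library, Smad3 had a TPM ratio of 2.97 and 3.46 in ACT IL21, 5.60 and 7.58 in ACT, and 1.01 and 0.95 in N. Smad3 and Smad7 transcripts were thus at about equal levels in N, and Smad3 was the more abundant in each ICOS+ library. Smad2, the other SMAD gene that TGFBR1 acts on, is not in these ratios. In N it was at 82.64 and 80.21 TPM, beside 31.97 and 24.15 TPM of Smad7. These ratios are a description of the levels above, with no test of their own.

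Skil (chromosome 3, 31095058 to 31122577, plus strand, protein-coding), the gene of SnoN, was at 41.56 and 52.28 TPM in ACT IL21, 51.25 and 55.63 TPM in ACT, and 77.69 and 89.43 TPM in N. Each ICOS+ library was below each N library, as for Smad7, and the ICOS+ pools overlapped. The log2 fold change of Skil was -0.82 ± 0.19 (SE) in ACT IL21 against N (adjusted p = 0.0516), -0.63 ± 0.19 in ACT against N (adjusted p = 0.114) and -0.19 ± 0.19 in ACT IL21 against ACT (adjusted p = 0.694), by limma. The first of these passed under 4 of 15 alternatives (a filter of 5 TPM, both other scalings and the replicate block), with adjusted p from 0.0325 to 0.384 over the 15 and from 0.0595 to 0.384 with a library left out.

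Ski (chromosome 4, 155154075 to 155222592, minus strand, protein-coding), the gene of the related corepressor, was at 70.09 and 61.64 TPM in ACT IL21, 54.43 and 31.47 TPM in ACT, and 66.73 and 50.04 TPM in N. The ACT libraries lay furthest apart, and N overlapped both other pools. No difference of Ski passed by limma, with log2 fold changes of 0.65 in ACT IL21 against ACT (95% interval 0.01 to 1.30, adjusted p = 0.332), -0.47 in ACT against N (-1.12 to 0.18, adjusted p = 0.436) and 0.18 in ACT IL21 against N (-0.47 to 0.83, adjusted p = 0.796). The TPM ratio of Skil to Ski was 0.59 and 0.85 in ACT IL21, 0.94 and 1.77 in ACT, and 1.16 and 1.79 in N, so that Ski was the more abundant corepressor transcript in both ACT IL21 libraries and Skil in both N libraries.

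**Figure D3:**
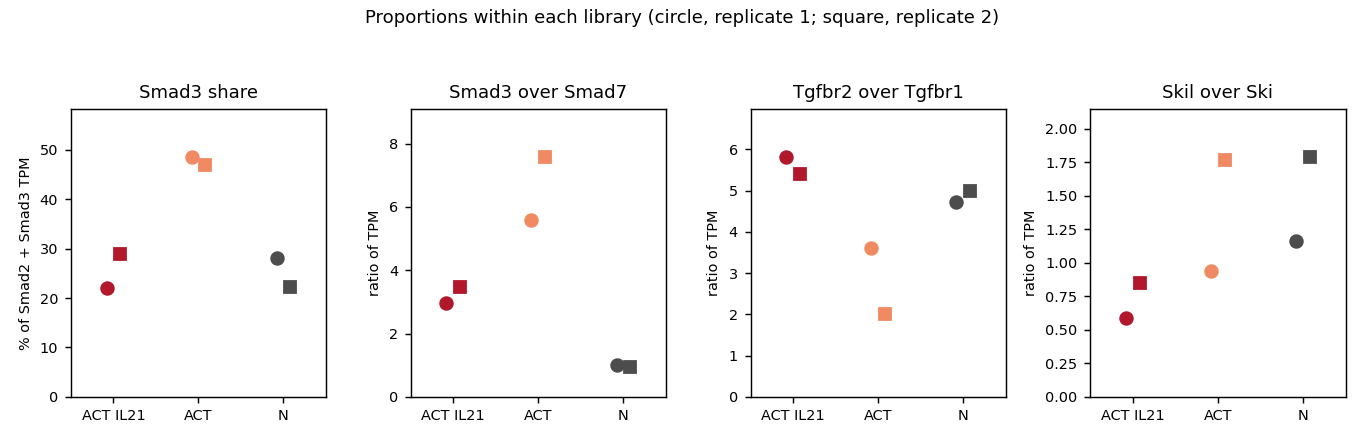
Proportions of member transcripts within each library of the ACT IL21, ACT and N pools: the share of Smad3 in the summed Smad2 and Smad3 TPM (percent) and the TPM ratios of Smad3 to Smad7, Tgfbr2 to Tgfbr1 and Skil to Ski. Points are libraries (circle, replicate 1; square, replicate 2); the Smad3 share is 48.6% and 46.9% in ACT, and at most 28.9% in the other libraries.

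Over the 9 members, libraries of the 2 pools did not overlap for 6 genes in each of the 3 comparisons. Over all genes tested this was so for 47.0% in ACT against N, 51.4% in ACT IL21 against N and 41.8% in ACT IL21 against ACT. The summed TPM of the 9 members was 483.9 and 468.9 in ACT IL21, 473.3 and 427.4 in ACT, and 566.5 and 509.9 in N. The sum was highest in the N libraries, and the ICOS+ pools overlapped.

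For each member that passed the F test, the 3 genes with the most similar pattern were taken by Pearson correlation of log2(TPM + 1) over the 6 libraries, among 8577 named genes with a mean of at least 5 TPM. The 6 points fall into 3 pools, so a high value mainly says that the pool means have the same order and spacing. For Smad3 these were Tnfrsf18, which encodes the costimulatory receptor GITR (r = 0.991), Cdyl2 (0.990) and Bet1 (0.989). Tnfrsf18 was at 73.88 and 87.49 TPM in ACT IL21, 196.06 and 182.98 TPM in ACT, and 76.11 and 64.48 TPM in N. For Smad4 they were Sptbn1, a spectrin gene (0.998), Rcan3, a calcineurin regulator gene (0.997), and Lipa, the lysosomal acid lipase gene (0.993). For Smad7 they were Sh3bp5 (0.995), Epc1 (0.990) and Jak1, a cytokine receptor kinase gene (0.990). Jak1 was at 430.68 and 444.61 TPM in ACT IL21, 447.19 and 418.93 TPM in ACT, and 581.84 and 545.62 TPM in N, a pattern of the same shape as Smad7 with a smaller relative difference.

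Other genes of the pathway, in 8 lists holding 107 genes of which 85 were tested, moved in a few places. In ACT against N, 15 rose and 1 fell (background 4.15% and 1.43% of all genes), in ACT IL21 against N 11 rose and 4 fell (3.82% and 1.26%), and in ACT IL21 against ACT none rose and 7 fell (0.796% and 1.15%). The median log2 fold changes of these 85 genes were 0.13, 0.035 and -0.017, beside 0.023, 0.10 and 0.076 over all genes. Most of the calls came from the lists of genes taken as induced or repressed by TGF-beta, which are also lineage genes of helper and regulatory T cells. The lists were chosen with earlier results of these data known, so the counts are a description and not a test against the background.

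Ligands and their activators had 9 of 20 genes tested, and 2 rose in ACT against N (Bmp7, and Itgb8, which was named after its values were seen), 3 rose and 1 fell in ACT IL21 against N, and 1 fell in ACT IL21 against ACT. Tgfb3, a further TGF-beta ligand gene, was at 16.51 and 19.38 TPM in ACT IL21, 3.39 and 5.10 TPM in ACT, and 1.57 and 0.64 TPM in N. Tgfb3 was highest in ACT IL21, at the level of Tgfb1 there, and rose against N by 3.20 ± 0.43 (SE, log2 scale, adjusted p = 0.00551), while the value against ACT was 1.87 (adjusted p = 0.0788), by limma. Itgav, the gene of the integrin alpha-V chain that helps release TGF-beta from its latent form, was at 60.10 and 66.21 TPM in ACT IL21, 36.39 and 39.29 TPM in ACT, and 23.49 and 20.88 TPM in N, and rose in ACT IL21 against N (1.47, adjusted p = 0.00546). Lrrc32, which encodes GARP, a docking protein for latent TGF-beta on regulatory T cells, was at 0.38 and 1.97 TPM in ACT IL21, 23.18 and 14.05 TPM in ACT, and 11.79 and 10.76 TPM in N. Lrrc32 fell in ACT IL21 against N (-2.60, adjusted p = 0.0209) and against ACT (-3.24, adjusted p = 0.0175). Bmp7, a bone morphogenetic protein gene, was at 8.15 and 8.79 TPM in ACT IL21, 17.43 and 6.31 TPM in ACT, and 0.54 and 0.59 TPM in N, and rose in ACT (2.89, adjusted p = 0.0159) and in ACT IL21 (2.60, adjusted p = 0.0267). The calls in ACT IL21 against N of these 4 genes each ended with any N or ACT IL21 library left out (adjusted p = 0.052 to 0.21). The call of Lrrc32 against ACT ended with each library left out (0.0629 to 0.134), and that of Bmp7 in ACT ended with each but ACT replicate 2 left out (0.0599 to 0.149).

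Of 12 further receptors of the family 9 were tested, and Tgfbr3 alone passed. Tgfbr3, the gene of the coreceptor betaglycan, was at 31.42 and 25.18 TPM in ACT IL21, 12.12 and 11.57 TPM in ACT, and 53.99 and 45.52 TPM in N. The pools did not overlap and had the order of Smad4 and Tgfbr2, with ACT lowest. Tgfbr3 fell by 1.98 on the log2 scale in ACT against N (adjusted p = 0.0027, and 0.0696 without N replicate 1), and its values in ACT IL21 were -0.80 against N (adjusted p = 0.112) and 1.18 against ACT (adjusted p = 0.0523), by limma. In each of the 2 comparisons of ACT IL21, 0 of the 9 receptors passed and 3 had an unadjusted p under 0.05. The share of all genes with one was 18.7% against N and 14.9% against ACT.

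Of the other SMAD genes, Smad6 was listed at 0 in all 6 libraries and Smad9 did not exceed 0.24 TPM. Smad5, which carries bone morphogenetic protein signals, was at 28.24 and 35.88 TPM in ACT IL21, 23.00 and 23.01 TPM in ACT, and 34.23 and 31.67 TPM in N. Neither Smad5 nor Smad1 passed in a comparison by limma. Of the 6 values, 1, that of ACT IL21 against N for Smad1, had an unadjusted p under 0.05, against 18.7% of all genes there.

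Among 21 regulators of receptors and SMADs, 1 rose in ACT against N, 1 rose in ACT IL21 against N and 1 fell in ACT IL21 against ACT. Wwp1, a ubiquitin ligase gene of the family that targets TGF-beta receptors and SMADs, was at 17.73 and 22.85 TPM in ACT IL21, 67.56 and 72.75 TPM in ACT, and 23.10 and 33.01 TPM in N. Like Smad3, Wwp1 was set apart in both ACT libraries, and it rose in ACT against N (1.31, adjusted p = 0.0215) and fell in ACT IL21 against ACT (-1.75, adjusted p = 0.0148). The rise of Wwp1 ended with each library left out (adjusted p = 0.0588 to 0.198), and the fall held with N replicate 1 left out (0.0468) and ended with each of the others left out (0.0512 to 0.164). Fkbp1a, the gene of an immunophilin that binds TGFBR1 and limits its activation, was at 378.24 and 338.40 TPM in ACT IL21, 244.84 and 213.33 TPM in ACT, and 224.90 and 196.00 TPM in N. It rose in ACT IL21 against N (0.77, adjusted p = 0.028 by limma), a call that ended with quantile normalisation (0.0513) and without any N or ACT IL21 library (0.119 to 0.246).

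Of 14 nuclear partners of SMADs that were tested, limma called 0 in each of the 3 comparisons, and 2 in each had an unadjusted p under 0.05. Of all genes, 18.6% had one in ACT against N, 18.7% in ACT IL21 against N and 14.9% in ACT IL21 against ACT. Ncor1, a corepressor gene and the most abundant of them, was at 436.31 and 528.27 TPM in ACT IL21, 475.89 and 459.89 TPM in ACT, and 507.85 and 521.06 TPM in N, with overlapping ACT IL21 and N pools. In the arm that signals without SMADs, limma called 0 of 9 genes in both comparisons of ACT IL21. In each, 1 had an unadjusted p under 0.05, beside the shares of all genes just given. In ACT against N, 1 of the 9 genes rose. That gene was Tab2, an adaptor of the kinase TAK1, at 193.32 and 183.53 TPM in ACT IL21, 226.86 and 231.79 TPM in ACT, and 156.19 and 139.30 TPM in N (log2 fold change 0.63 in ACT against N, adjusted p = 0.0403, but 0.0547 with median-of-ratios scaling, 0.0763 with quantile normalisation and 0.0976 to 0.283 with each library left out).

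**Figure D4:**
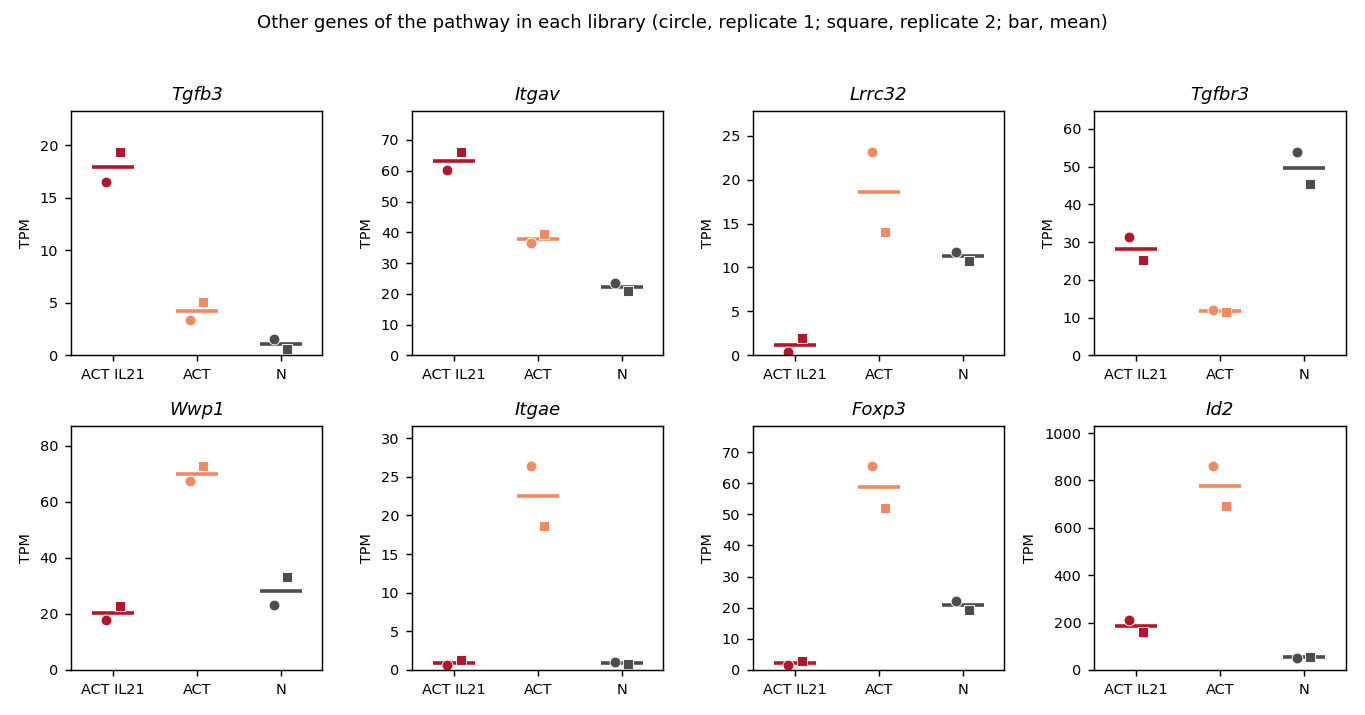
RNA levels in TPM (vertical axes, each from 0) of 8 other genes of the pathway in the ACT IL21, ACT and N pools. Points are libraries (circle, replicate 1; square, replicate 2) and bars are means of 2 libraries; Tgfb3 is highest in ACT IL21 (16.51 and 19.38 TPM), while Wwp1, Itgae, Foxp3 and Id2 are highest in both ACT libraries.

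Of the 14 genes taken as induced by TGF-beta, 9 were tested for differences. Whether TGF-beta induces Id2 or the others in these CD4+ cells was not tested. In ACT against N, 4 rose (Id2, Foxp3 and Itgae among them), in ACT IL21 against N 3 rose (Id2 among them, and Klf10, which was named after its values were seen) and 1 fell (Foxp3), and in ACT IL21 against ACT 3 fell (Id2, Foxp3 and Itgae). Id2, the gene of an inhibitor of E-protein transcription factors, was at 210.26 and 159.19 TPM in ACT IL21, 860.15 and 693.14 TPM in ACT, and 50.71 and 54.87 TPM in N. The 3 pools did not overlap for Id2, and its log2 fold changes were 3.85 in ACT against N (adjusted p = 3.93e-05), 1.78 in ACT IL21 against N (adjusted p = 0.00212, and 0.0604 without ACT IL21 replicate 1) and -2.07 in ACT IL21 against ACT (adjusted p = 0.00324, and 0.0624 and 0.0982 without ACT IL21 replicates 1 and 2). Itgae, which encodes the integrin chain CD103 and is a known TGF-beta target in T cells, was at 0.63 and 1.26 TPM in ACT IL21, 26.38 and 18.62 TPM in ACT, and 1.02 and 0.80 TPM in N. It was set apart in ACT in the same way as Smad3, with log2 fold changes of 3.60 in ACT against N (adjusted p = 0.0028, and 0.0503 without N replicate 2) and -3.59 in ACT IL21 against ACT (adjusted p = 0.00823, and 0.0693 to 0.12 without ACT replicate 1 or an ACT IL21 library).

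Foxp3, the lineage factor gene of regulatory T cells, was at 1.57 and 2.69 TPM in ACT IL21, 65.43 and 51.87 TPM in ACT, and 22.19 and 19.38 TPM in N. Its log2 fold changes were 1.45 in ACT against N (adjusted p = 0.0367), -2.82 in ACT IL21 against N (adjusted p = 0.00251) and -4.27 in ACT IL21 against ACT (adjusted p = 0.00212), by limma. The first ended with each library left out (0.0518 to 0.3), the second without either N library (0.0606 and 0.0512) and the third without ACT IL21 replicate 1 (0.0621). Foxp3 is itself in the regulatory T cell list whose sums are given above, so its values and that list are not separate measurements.

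Genes known to be repressed by TGF-beta in T cells were all tested, 12 of 12. In ACT against N 7 rose and none fell, in ACT IL21 against N 4 rose and 2 fell (Myc and Prf1, named after their values were seen), and in ACT IL21 against ACT none rose and 2 fell. Ifng, the interferon-gamma gene, was at 65.53 and 94.58 TPM in ACT IL21, 126.30 and 168.43 TPM in ACT, and 0.58 and 4.83 TPM in N. It rose in ACT (5.60, adjusted p = 0.00111) and in ACT IL21 (4.72, adjusted p = 0.00317, and 0.0721 and 0.0924 without ACT IL21 replicates 1 and 2), by limma. Klrg1, a lectin-like receptor gene of terminal effector cells, was at 2.86 and 2.70 TPM in ACT IL21, 72.81 and 98.01 TPM in ACT, and 0.33 and 0.91 TPM in N, and it rose in ACT against N (5.75, adjusted p = 0.00019) and fell in ACT IL21 against ACT (-4.50, adjusted p = 0.00286, and 0.0624 and 0.0861 without ACT IL21 replicates 1 and 2). Gzmb, the gene of the cytotoxic protease granzyme B, was at 8.37 and 11.66 TPM in ACT IL21, 24.83 and 32.35 TPM in ACT, and 0.33 and 1.35 TPM in N, and it rose in ACT (4.05, adjusted p = 0.0015) and in ACT IL21 (2.62, adjusted p = 0.0122, and 0.0597 to 0.149 without an N or ACT IL21 library) against N. Tbx21, the type 1 helper factor gene, had 4.23 and 6.54 TPM in ACT IL21 and 28.50 and 13.87 TPM in ACT, while each N library lists it at 0, so no fold is given. The induced and the repressed lists thus both held genes that were higher in ACT than in N, with median log2 fold changes of 0.99 and 1.72 beside 0.023 over all genes.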

How the data were processed

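The authors deposited a table of gene-level TPM values, 1 column per library for 6 libraries, named in the labels by pool and replicate. Per the submitters' processing notes, the tools were Trimmomatic, Bowtie and RSEM on GRCm38, with no version stated. Per the labels' protocols, polyadenylated RNA was amplified with a NuGEN Ovation kit, which may make weakly expressed genes noisier. For annotation, strand setting and depth the entry is: not given in the sources used here. Since RSEM estimates how reads are split among similar genes, close relatives such as Smad2 and Smad3 may depend on that split.

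The table has 38355 entries, and 139 of them were summed into another entry of the same symbol, which left 38216 symbols. The 13311 genes that reached 1 TPM in 2 or more libraries were analysed as log2(TPM + 1) using R 4.3.3 and limma 3.58.1. The pool was the sole term, all 6 libraries were fitted together with an intensity trend, and tests were 2-sided, with 3 residual and 4.841 prior degrees of freedom. Older symbols (Lrrc33 and Ctgf) were matched through RefSeq synonyms. Coordinates are from GENCODE M21 on GRCm38. The code was tested on simulated data.

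All members were named, and in each pathway list up to 4 genes past the threshold with the smallest F test p, or the most abundant gene where none passed. Some genes that count in the lists are not reported here by name. The members and lists were chosen with earlier results of these data known. Alternatives changed the pseudocount, the filter, the scaling, the spread model, the libraries fitted and the replicate block.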

Additional observations from a re-analysis of the deposited data

How the results depend on the processing

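Calls among the 9 members rested on few libraries. With a library left out, members called numbered 0 to 1 in ACT against N, 0 to 1 in ACT IL21 against N and 0 to 0 in ACT IL21 against ACT. All genes called then numbered 205 to 526, 75 to 728 and 0 to 81, and other pathway genes 6 to 9, 1 to 15 and 0 to 5. In ACT against N, members called were 0 without an intensity trend and 1 with the 2 pools alone. All genes called were 469 without a filter on low values and 417 with the 2 pools alone, and other pathway genes 8 and 10. In ACT IL21 against N, members called were 0 without a filter or without a trend, and 2 with a filter of 5 TPM, with median-of-ratios scaling and with quantile normalisation. All genes called were 410 and other pathway genes 6 without a filter. In ACT IL21 against ACT, 1 member, Smad3, passed with a pseudocount of 5, a filter of 5 TPM and each of the 2 other scalings. All genes called were 124 without a filter and 92 with the 2 pools alone. The added members were Smad7 in ACT against N and Skil in ACT IL21 against N.

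Signs turned only for values that had not passed: in ACT IL21 against N without N replicate 2, Smad3 was at -0.038 (range with a library left out -0.038 to 0.444) and Ski at -0.021 (-0.021 to 0.387), and in ACT IL21 against ACT without ACT replicate 1, Smad7 was at 0.05 (-0.325 to 0.05). Quantile normalisation moved the median log2 fold change of all genes in ACT IL21 against N to -0.052, beside 0.10 as deposited, and no member turned its sign under either scaling. Of 29 calls of named pathway genes, 5 held with each library left out, all in ACT against N (Id2, Klrg1, Ifng, Gzmb and Tbx21). Calls also ended without a filter on low values for Bmp7, Wwp1, Tab2 and Foxp3 in ACT against N, for Lrrc32, Bmp7, Fkbp1a and Tbx21 in ACT IL21 against N and for Lrrc32 in ACT IL21 against ACT. With a pseudocount of 5, those of Bmp7 and Tbx21 in ACT IL21 against N ended, and with 0.1 that of Foxp3 in ACT against N. Without an intensity trend, those of Wwp1, Tab2 and Foxp3 in ACT against N ended. So did those of Fkbp1a in ACT IL21 against N and Wwp1 in ACT IL21 against ACT. With the 2 pools alone, those of Bmp7, Wwp1 and Tab2 in ACT against N and of Lrrc32 in ACT IL21 against ACT ended.

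With the replicate number as a block, the calls were 784, 732 and 284 over all genes and 3, 2 and 0 among the members in ACT against N, ACT IL21 against N and ACT IL21 against ACT. Deviations of same-numbered libraries correlated at 0.21 between ACT and N, -0.004 between ACT IL21 and N and 0.001 between ACT IL21 and ACT across genes. The main fit did not pair samples by number. For ACT and N the value of 0.21 does not settle whether same-numbered libraries share a part of their spread. Depth is unknown, and no detection floor is given.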
